A study of Mus musculus with 42 samples.

Results

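The regions described here are sites of the mouse genome that were bound by β-catenin and LEF1 in WNT-activated epiblast-like cells but had no SOX2 peak among the best SOX2 peaks of the same cells. They were found in peak lists from chromatin immunoprecipitation followed by sequencing (ChIP–seq). They were chosen by the ranks of peaks in the 9 wild-type lists: the 20000 best peaks of each list were pooled, and merging those with 1 bp or more in common gave 139863 regions. A region was a member if it held a peak of at least 2 of 3 β-catenin lists, of at least 2 of 3 LEF1 lists and of 0 of 3 SOX2 lists, which gave 470 members. Of 1483 regions with β-catenin and LEF1, 678 also had SOX2 in at least 2 of 3 lists and are called triple regions, and 335 had SOX2 in 1 of 3 lists.

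The series held 42 samples collected at 72 h, of which the 30 immunoprecipitated libraries were used and the 12 input samples were not analysed here. All cells were HM1 mouse embryonic stem (ES) cells of 129 strain taken to an epiblast-like state with FGF and with LGK974, which blocks the secretion of WNT proteins. CHIR99021 (CHIR), an inhibitor of GSK3 that activates WNT signalling inside the cell, was added for the last day (CEpiLC) or left out (EpiLC, no CHIR). The wild-type (WT) CHIR, Cdx1/2/4-/- CHIR (CdxKO) and T/Bra-/- CHIR (T/BraKO) groups each had 3 β-catenin, 3 LEF1 and 3 SOX2 libraries, and WT without CHIR had 3 SOX2 libraries. Each genotype was a cell line of its own, so line and genotype cannot be told apart. The replicates were labelled biological replicates.

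β-catenin carries the WNT signal into the nucleus and has no DNA-binding domain of its own. It reaches chromatin through TCF/LEF factors such as LEF1, which recognise a short DNA motif, and it accumulates when GSK3 is inhibited. SOX2 is a DNA-binding factor of pluripotent and neural cells, whereas T/BRA and the CDX factors are induced by WNT in the primitive streak and in caudal progenitors.

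The following sequences show what the members looked like on DNA. Each is 101 bp of the mm10 reference (C57BL/6J, not read from these 129 cells) centred on the strongest WT β-catenin summit, named by the nearest protein-coding gene, with matches to the TCF/LEF motif (CTTTGAA or CTTTGAT, or their reverse complements TTCAAAG and ATCAAAG) in capitals. They were chosen to show the best-ranked member (Nectin1), members at developmental genes (Nodal, Hoxb1, T) and a member with no β-catenin peak in any CdxKO list (Zic4).

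Nectin1 (chr9:43843931-43844031, plus strand): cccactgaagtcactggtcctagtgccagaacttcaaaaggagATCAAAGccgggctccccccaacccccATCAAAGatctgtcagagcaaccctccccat
Nodal (chr10:61406142-61406242, plus strand): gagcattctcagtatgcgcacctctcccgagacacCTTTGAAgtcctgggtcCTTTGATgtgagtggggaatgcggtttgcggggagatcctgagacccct
Hoxb1 (chr11:96370563-96370663, plus strand): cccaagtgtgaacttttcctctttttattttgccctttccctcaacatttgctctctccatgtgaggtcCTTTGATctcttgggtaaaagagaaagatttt
T (chr17:8421736-8421836, plus strand): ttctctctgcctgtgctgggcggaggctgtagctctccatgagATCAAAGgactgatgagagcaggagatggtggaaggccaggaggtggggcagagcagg
Zic4 (chr9:91445723-91445823, plus strand): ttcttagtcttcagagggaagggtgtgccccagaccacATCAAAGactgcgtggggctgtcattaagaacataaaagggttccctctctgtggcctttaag

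The Nectin1 and Nodal windows each held 2 TCF/LEF matches, and the other 3 windows held 1. None of the 5 windows held a SOX motif (CCATTGT or CCTTTGT, on either strand). The Nectin1, Nodal and Hoxb1 members lay outside annotated genes. The T member lay in an intron of T2 upstream of T, and the Zic4 member lay in an intron of Gm29478, a non-coding gene model.

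TCF/LEF motifs were far more frequent at members than at the other classes of region. In windows of 100 bp on each side of the summit (a window), 382 of 470 members (81.3%, 95% Wilson interval 77.5 to 84.5) held the motif, against 8.72% of the same windows moved by 1000 bp. The share was 57.7% (53.9 to 61.3) in triple regions, 41.8% in 3392 β-catenin regions without LEF1 or SOX2, 33.2% in 280 LEF1 regions without β-catenin or SOX2, 19.1% in 1374 regions of β-catenin and SOX2 without LEF1, and 14.5% in all merged regions. Members often held several copies. A count of 2 or more TCF/LEF matches was found in 29.6% of members (25.6 to 33.9), 12.4% of triple regions (10.1 to 15.1) and 1.41% of all merged regions. Regions are not replicates, so the intervals cover counting error only, and these shares were not tested.

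**Figure D1:**
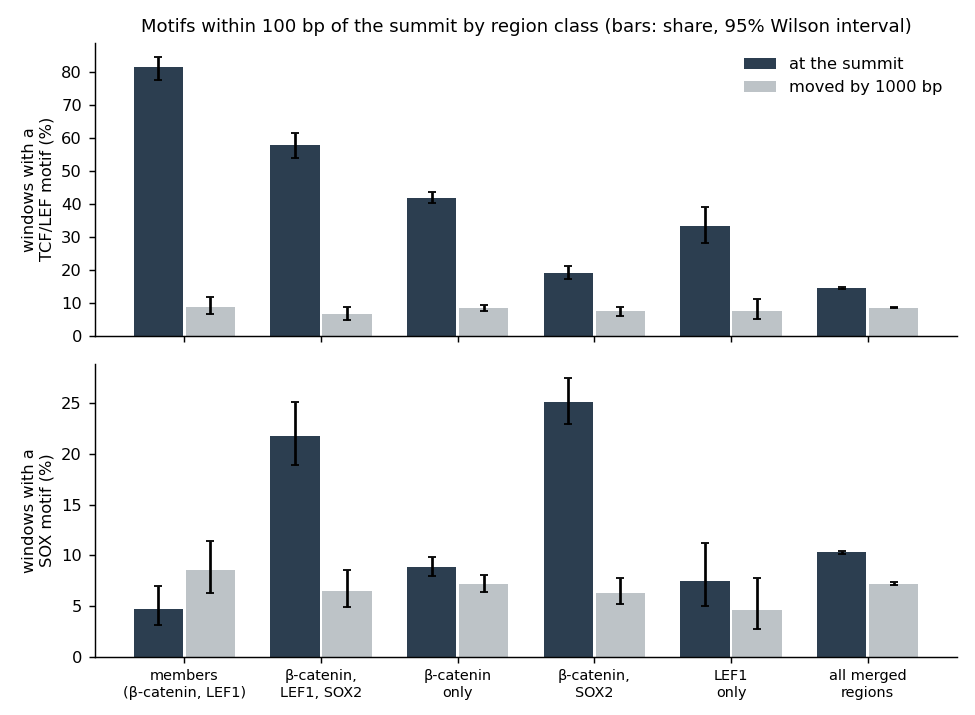
Percentage of windows of 100 bp on each side of the summit with a TCF/LEF motif (top) or a SOX motif (bottom) in 6 classes of region; dark bars are windows at the summit, light bars the same windows moved by 1000 bp, and error bars are 95% Wilson intervals. Members had the highest TCF/LEF share (81.3%) and the lowest SOX share (4.68%) of the 6 classes.

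SOX motifs showed the opposite pattern. They were found in 22 of 470 members (4.68%, 3.11 to 6.99), against 8.51% (6.31 to 11.4) of the moved windows and 10.3% of all merged regions. Of triple regions 21.8% held a SOX motif, as did 25.2% of the β-catenin and SOX2 regions without LEF1 and 8.84% of the β-catenin regions without either partner. In 17 members a TCF/LEF and a SOX motif occurred in the same window, and in none of these did the matches share bases. Motif sequence was not used to choose the members, but SOX2 binding was. A lower SOX motif share than in classes that hold SOX2 peaks is therefore not independent of the rule.

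The motifs of the factors deleted in the mutant lines were not frequent at members. CDX motifs (CAATAAA or CCATAAA, and counted with them TAATAAA or TCATAAA, on either strand) occurred in 49 members (10.4%, 7.98 to 13.5), against 17.0% of the moved windows, 14.5% of triple regions and 15.0% of all merged regions. The T-box motif AGGTGTGA occurred in 5 members (1.06%) and in 1.10% of all merged regions.

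TCF/LEF matches lay close to the summit. Per 100 members there were 43.4 matches in the 50 bp to the left of the β-catenin summit and 41.3 in the 50 bp to the right, against 24.0 and 27.1 per 100 triple regions. Between 150 and 500 bp from the summit, no 50 bp step held more than 4.26 matches per 100 members. SOX matches at members showed no such peak, with 1.28 and 2.55 per 100 members in the steps next to the summit and at most 3.40 in any step.

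**Figure D2:**
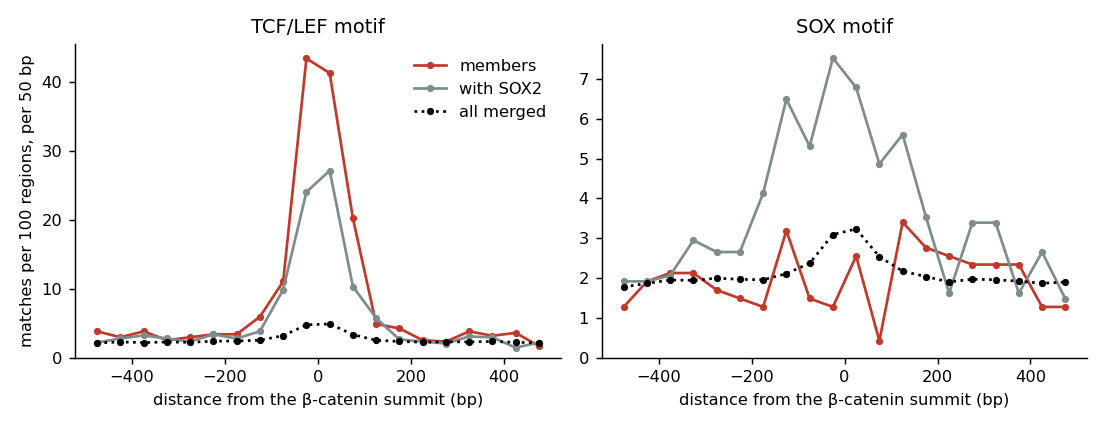
Matches per 100 regions in steps of 50 bp, plotted against distance from the β-catenin summit in bp, for the TCF/LEF motif (left) and the SOX motif (right) in members, triple regions ("with SOX2") and all merged regions. Merged regions without a β-catenin peak were centred on a LEF1 or SOX2 summit instead. The TCF/LEF curve of members peaks at 43.4 next to the summit and lies above that of triple regions there.

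Members were mostly distal. By their summits, 251 (53.4%) were intergenic, 194 (41.3%) were in introns and 25 (5.32%) were in exons. A transcription start site lay within 1000 bp of 54 members (11.5%, 8.91 to 14.7), close to the 11.2% of triple regions and the 10.8% of all merged regions. The median distance to the nearest protein-coding start site was 28085 bp, and 179 members (38.1%) were over 50000 bp away. Members were scattered. They had 449 different nearest genes, of which 21 were nearest to 2 members and none to more, and only 6 members lay within 10000 bp of another. The median width was 648 bp for members, 985.5 bp for triple regions and 186 bp for all merged regions, and the median GC content of a member window was 49.3%.

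In WT, the lists that chose the members showed stronger support for β-catenin than for LEF1. Of the 470 members, 387 were in 3 of 3 β-catenin lists and 133 in 3 of 3 LEF1 lists, and 120 were in all 6. The median over members of the mean rank (rank 1 is the best peak of a list, and a list without a peak among its 20000 best counts as 1 rank beyond them) was 2597 for β-catenin and 8018 for LEF1. Triple regions ranked better, at 664 and 6114.

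Members were not free of weaker SOX2 peaks. Below the limit of 20000 peaks, SOX2 peaks lay at 282 members (60%) in the first WT CHIR SOX2 list, at 171 (36.4%) in the second and at 260 (55.3%) in the third. The median ranks of those peaks were 291896, 120375 and 69553. Their median −log10 q was 5.48, 3.93 and 5.04, whereas the weakest of the 20000 best peaks had 14.1, 7.28 and 8.20. Only 75 members (16%) had no peak in any of the 3 complete lists, 154 had a peak in 1, 164 in 2 and 77 in 3. The members are therefore sites of low SOX2 rank rather than sites shown to lack SOX2.

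WT SOX2 library 3 stood apart from the other SOX2 libraries of its group. When it was left out of the rule and SOX2 had to be absent from the other pair of lists, 724 regions were members and 35.1% of them were called in the library left out. Leaving out the first or second SOX2 library gave 498 and 526 regions, of which 5.62% and 10.6% were called in the library left out. Among the LEF1 libraries the second stood apart, since 43.3% of regions chosen without it were called in it, against 61.4% and 62.1% for libraries 1 and 3.

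The limit of 20000 peaks separated regions with close LEF1 ranks. Those named next were picked as the nearest to it, so this closeness was set by the choice. The last members inside it were nearest to Vstm2a, Lix1 and Calml3, with a second-best LEF1 rank of 19996, 19978 and 19967. The first regions outside were nearest to Dusp11, Mbnl2 and Ankrd28, with 20146, 20218 and 20240. Second-best β-catenin ranks were 5174, 1212 and 7778 inside and 340, 6675 and 13655 outside.

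To ask whether binding at these sites depended on T/BRA or the CDX factors, the members were followed in the mutant lists, none of which had been used to choose them. β-catenin was called at most members in both mutants. In the 3 CdxKO libraries 88.3%, 85.3% and 90.0% of members had a β-catenin peak among the 20000 best, a mean of 87.9% ± 2.37 (SD, n = 3). In the 3 T/BraKO libraries the shares were 83.0%, 79.4% and 88.3%, a mean of 83.5% ± 4.50 (SD, n = 3). The ranges of the mutants overlapped. CdxKO and T/BraKO differed by 4.33 percentage points (two-sided exact permutation test, p = 0.3, adjusted p = 0.3 over 4 tests). With 3 libraries a group this test cannot give a p below 0.1. WT libraries that had been left out of the rule gave 95.8%, 93.8% and 90.7%, with CdxKO means of 90.4% to 91.8% and T/BraKO means of 84.6% to 85.6% on the same regions.

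**Figure D3:**
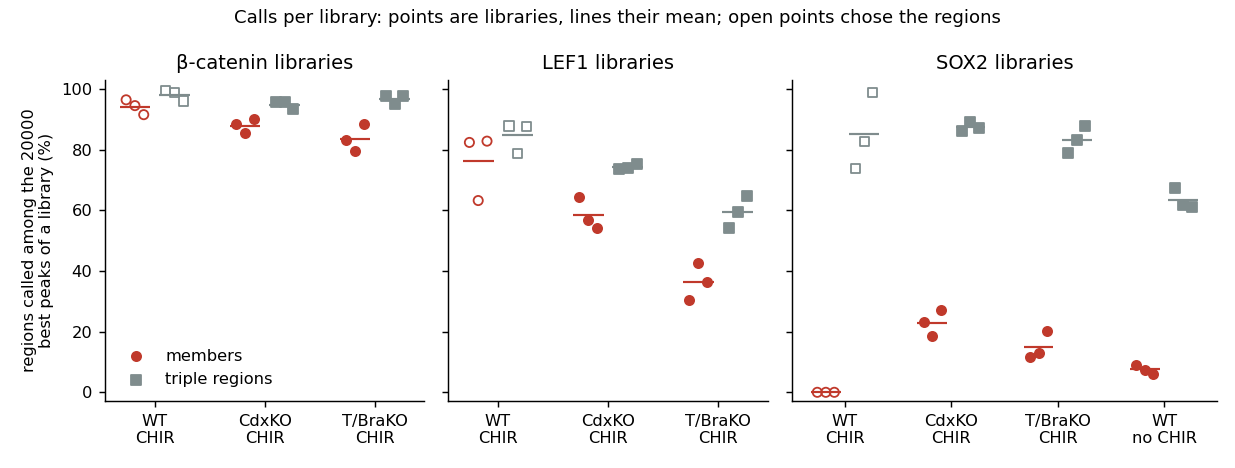
Percentage of the 470 members (circles) and 678 triple regions (squares) called among the 20000 best peaks of each library, for β-catenin, LEF1 and SOX2; lines are group means and open points are the lists that chose the regions. In LEF1, CdxKO points of members (54.0% to 64.3%) lie above T/BraKO points (30.4% to 42.6%). In SOX2 all points of members lie far below those of triple regions, and WT SOX2 calls had defined both classes.

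LEF1 was called at fewer members in T/BraKO than in CdxKO in every library. The 3 CdxKO LEF1 libraries called 64.3%, 56.8% and 54.0% of members (mean 58.4% ± 5.28, SD, n = 3) and the 3 T/BraKO libraries called 30.4%, 42.6% and 36.4% (mean 36.5% ± 6.06, SD, n = 3). The groups did not overlap, and the difference was 21.9 percentage points (two-sided exact permutation test, p = 0.1, which is the smallest possible, adjusted p = 0.2). It therefore did not pass the threshold of 0.05. With members chosen anew from the complete lists, and called in them, the difference was 6.71 points (exact permutation test, p = 0.4, adjusted p = 0.533). At the 470 members themselves, the complete lists held LEF1 peaks at means of 88.3% in CdxKO and 74.5% in T/BraKO. WT libraries left out of the rule called 61.4%, 43.3% and 62.1%, so the CdxKO means of 62.4% to 65.4% on those regions were at or above WT, while T/BraKO means ranged from 38.1% to 45.6%. The second WT library, at 43.3%, lay within reach of T/BraKO.

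SOX2 was called at a minority of members in every library outside the rule. CdxKO libraries called 23.2%, 18.5% and 27.2% (mean 23.0% ± 4.37, SD, n = 3), T/BraKO libraries 11.7%, 13.0% and 20.2% (mean 15.0% ± 4.59, SD, n = 3), and WT libraries without CHIR 8.94%, 7.45% and 6.17% (mean 7.52% ± 1.38, SD, n = 3). The CdxKO and T/BraKO ranges overlapped and differed by 8.01 points (two-sided exact permutation test, p = 0.2, adjusted p = 0.267). Same-numbered SOX2 libraries of both mutants deviated together, and CdxKO was the higher in 3 of 3 such pairs (exact sign-flip permutation test, p = 0.25, the smallest that 3 pairs can give). The libraries without CHIR all lay below the 6 mutant CHIR libraries, by 11.5 points in the means (two-sided exact permutation test, p = 0.0357, adjusted p = 0.143), which did not pass the threshold after adjustment. With members chosen anew from the complete lists, and called in them, the difference was −3.86 points (exact permutation test, p = 0.321, adjusted p = 0.533). At the 470 members themselves, the complete lists held SOX2 peaks at means of 25.96% without CHIR, 53.62% in CdxKO and 34.04% in T/BraKO. There the T/BraKO libraries (25.74% to 41.28%) overlapped those without CHIR (24.04% to 28.3%), and no test was made. Between the libraries without CHIR and the mutant libraries, CHIR and genotype differed together and cannot be told apart. The 0% of WT with CHIR is fixed by the rule and is not comparable with these values, and WT SOX2 libraries left out of the rule called 5.62%, 10.6% and 35.1%.

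Compared with triple regions in the same libraries, members were called less often for all 3 factors. β-catenin was called at 94.8% of triple regions in CdxKO and 96.8% in T/BraKO, and the mean difference of members from triple regions over 6 libraries was −10.1 percentage points (two-sided exact sign-flip permutation test, p = 0.0312, adjusted p = 0.0312). For LEF1 triple regions reached 74.3% and 59.4%, and the difference was −19.4 points (exact sign-flip permutation test, p = 0.0312, adjusted p = 0.0312). For SOX2 triple regions reached 87.4% in CdxKO, 83.2% in T/BraKO and 63.5% without CHIR, and the difference over 9 libraries was −62.9 points (exact sign-flip permutation test, p = 0.00391, adjusted p = 0.0117). Members were lower in 6 of 6, 6 of 6 and 9 of 9 libraries, and these p-values are the smallest that 6 and 9 libraries can give. For SOX2 the direction was largely set by the rule, since SOX2 calls in WT with CHIR had defined both classes. No conclusion is therefore drawn from the SOX2 test. The β-catenin difference was −30.3 points with both classes chosen anew from the complete lists and −3.95 points for regions called in 3 of 3 lists of both factors. For the members and triple regions followed here, the complete lists held β-catenin peaks at means of 93.9% and 97.0% in CdxKO. In T/BraKO these means were 91.6% and 98.5%. Triple regions also had better β-catenin and LEF1 ranks in WT, as given above, and the part of WT rank in these differences was not tested.

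Region by region, members had β-catenin in the mutants more often than WT β-catenin regions as a whole, and the part of their WT rank in this was not tested. In CdxKO 425 members (90.4%) were called in at least 2 of 3 β-catenin lists, against 68.1% of the 9687 WT β-catenin regions, and in T/BraKO 403 (85.7%), against 73.6%. At 282 members, a count for which no background share was computed, β-catenin was called in all 6 mutant lists. It was called in 3 of 3 CdxKO and 0 of 3 T/BraKO lists at 22 members (4.68%, background 4.27%), and in 3 of 3 T/BraKO and 0 of 3 CdxKO lists at 7 (1.49%, background 4.44%). The first of these shares is near its background.

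For LEF1, 279 members (59.4%) were called in at least 2 of 3 CdxKO lists, against 57.6% of the 1918 WT LEF1 regions, and 166 (35.3%) in at least 2 of 3 T/BraKO lists, against 40.8%. LEF1 was in 3 of 3 CdxKO and 0 of 3 T/BraKO lists at 35 members (7.45%, background 5.37%), and in the opposite pattern at 1 (0.213%, background 0.261%). WT LEF1 regions as a whole were thus also called less often in T/BraKO than in CdxKO.

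SOX2 was called in at least 2 of 3 CdxKO lists at 93 members (19.8%), against 12.0% of the 4841 WT β-catenin regions that likewise had no SOX2 in the 3 WT CHIR lists. In T/BraKO it was called at 44 members (9.36%, background 10.6%) and without CHIR at 26 (5.53%, background 9.03%). At 192 members SOX2 was called in none of the 9 lists outside the rule, and no background share was computed for this count.

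Some of the members resembled each other in sequence. When 501 bp windows of members and triple regions were linked wherever they shared at least 40 words of 16 bases, the 2 largest groups held 92 and 91 regions. Family A had 72 members and 19 triple regions, and family B had 27 members and 65 triple regions, so that 371 members were in neither. The families were found after the data had been seen, and their values are given as a description with no test. The reference marks these sequences as repeats, by a median of 60.2% of the window in family A and 87.6% in family B, against 9.95% in the other members. Family A members lay on 20 chromosomes and none was within 1000 bp of a start site. At a lower limit of 20 shared words families A and B were parts of 1 group of 214 regions with 114 members. At a higher limit of 80 shared words the largest groups held 87, 26 and 24 regions, with 25, 22 and 23 members. Links were chained, so members of a family need not resemble every other member of it. Members placed in neither family can still carry related sequence, as given below for those nearest to Pkdcc and Rftn1.

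The next sequences are 6 family A members as 100 bp of mm10, oriented and aligned so that a TCF/LEF match begins at the same place. They were picked as examples from the 71 of 72 family A members that could be aligned, to show copies with the TCF/LEF motif in a shared setting. The first 3 align on a CTTTGAA match and the last 3 on a CTTTGAT match, which lie in different parts of the element.

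Klhl6 (chr16:19997149-19997248, minus strand): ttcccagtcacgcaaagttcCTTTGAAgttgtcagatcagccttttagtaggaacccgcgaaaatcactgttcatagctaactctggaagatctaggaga
Zfp354a (chr11:51130263-51130362, plus strand): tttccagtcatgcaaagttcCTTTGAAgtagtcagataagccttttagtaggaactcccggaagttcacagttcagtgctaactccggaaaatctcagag
Actl6a (chr3:32687074-32687173, plus strand): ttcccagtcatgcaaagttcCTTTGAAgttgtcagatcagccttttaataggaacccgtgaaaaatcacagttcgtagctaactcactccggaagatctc
Pgr (chr9:8882952-8883051, minus strand): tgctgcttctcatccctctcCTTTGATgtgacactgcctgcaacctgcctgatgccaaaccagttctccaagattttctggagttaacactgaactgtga
Ercc4 (chr16:12691836-12691935, minus strand): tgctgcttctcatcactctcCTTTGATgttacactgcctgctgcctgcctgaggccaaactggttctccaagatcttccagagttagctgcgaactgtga
Slc1a4 (chr11:20394731-20394830, plus strand): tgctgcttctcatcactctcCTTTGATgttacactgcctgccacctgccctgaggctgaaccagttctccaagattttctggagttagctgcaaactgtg

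A TCF/LEF match within 100 bp of the summit was present in 70 of 72 family A members (97.2%), a SOX match in 1. Of these 6 members, those nearest to Klhl6, Zfp354a, Actl6a, Pgr and Slc1a4 were intergenic, and that nearest to Ercc4 lay in an intron of the non-coding gene 4930414F18Rik. Family A was frequent among the strongest members. It made up 6 of the 20 best-ranked members, 15 of the best 50 and 32 of the best 100.

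A TCF/LEF match could be aligned in 18 of 27 family B members. The 3 given next were picked as examples of one shared sequence, aligned on a CTTTGAA match. The copies nearest to Npffr2, Prim2, Gm5415 and Casp12 carried a different sequence around the match, and those nearest to Zfp963 and Zfp964 aligned on CTTTGAT.

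Fabp12 (chr3:10266216-10266315, minus strand): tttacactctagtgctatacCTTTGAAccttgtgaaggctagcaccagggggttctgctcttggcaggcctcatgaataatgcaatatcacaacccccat
Serpinb9b (chr13:33053056-33053155, minus strand): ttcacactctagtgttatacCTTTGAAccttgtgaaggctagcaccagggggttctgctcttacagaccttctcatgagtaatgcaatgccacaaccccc
Ankrd13c (chr3:157980934-157981033, plus strand): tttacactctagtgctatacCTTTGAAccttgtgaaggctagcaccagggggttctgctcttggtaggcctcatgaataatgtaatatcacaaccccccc

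Fabp12 and Ankrd13c name introns of those genes, and Serpinb9b an intergenic site. In family B 16 of 27 members (59.3%) held a TCF/LEF match within 100 bp of the summit and 3 held a SOX match.

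The families differed from the other members in which lists they appeared. In CdxKO β-catenin was called at 100% of family A members in all 3 libraries and at a mean of 97.5% of family B members, against 84.8% of members of neither family. In T/BraKO β-catenin was called at 78.2% ± 8.37 (SD, n = 3) of family A, at 49.4% ± 2.14 (SD, n = 3) of family B and at 87.1% ± 4.15 (SD, n = 3) of the other members. The 3 T/BraKO libraries gave 48.1% to 51.9% for family B and 83.6% to 91.6% for the others, and these ranges did not overlap. Family A, at 69.4% to 86.1%, overlapped the others. In the complete T/BraKO lists β-catenin peaks lay at 59.3% to 70.4% of family B and 77.8% to 95.8% of family A. For the others this was 92.7% to 96.0%.

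LEF1 in T/BraKO was called at a mean of 20.8% of family A, 4.94% of family B and 41.8% of the other members. In CdxKO the means were 75%, 55.6% and 55.3%, and family B overlapped the others. SOX2 in CdxKO was called at a mean of 53.1% of family B, 25.5% of family A and 20.3% of the other members, and in T/BraKO at 8.64%, 2.78% and 17.8%. Without CHIR the SOX2 means were 13.6% for family B, 1.39% for family A and 8.27% for the others.

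**Figure D4:**
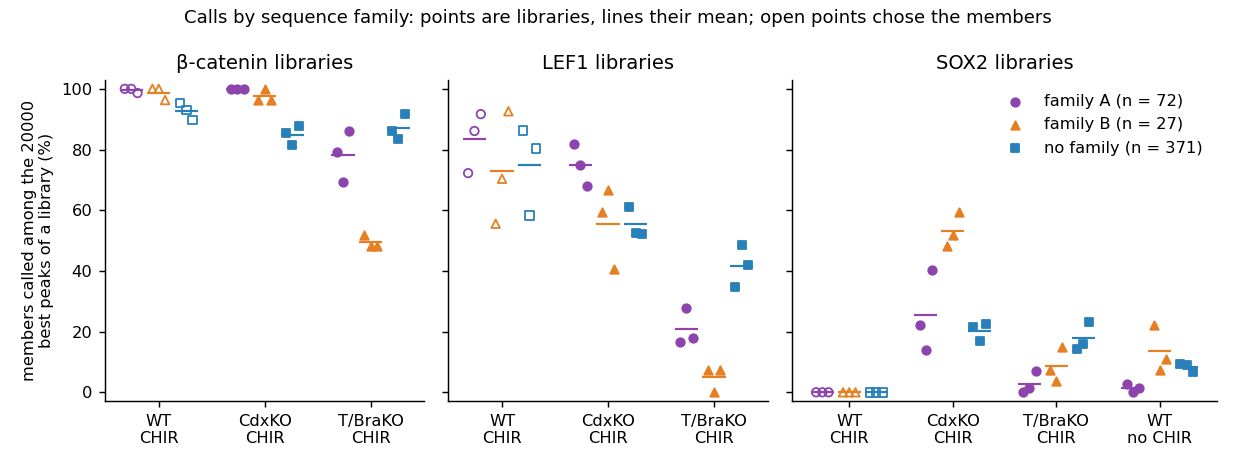
Percentage of family A (72), family B (27) and other members (371) called among the 20000 best peaks of each library for β-catenin, LEF1 and SOX2; lines are group means and open points are the lists that chose the members. In T/BraKO the β-catenin points of family B lie at 48.1% to 51.9%, below those of the members of no family at 83.6% to 91.6%.

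The members with β-catenin in only 1 of the mutants are given by family, beside the 72 members of family A, 27 of family B and 371 of neither. Of the 22 members with β-catenin in 3 of 3 CdxKO and 0 of 3 T/BraKO lists, 8 were of family A (11.1% of its members), 8 of family B (29.6%) and 6 of neither (1.62%). All 7 with the opposite pattern were of neither family (1.89%), which held most members. Of the 35 members with LEF1 in 3 of 3 CdxKO and 0 of 3 T/BraKO lists, 19 were of family A (26.4%), 4 of family B (14.8%) and 12 of neither (3.23%). Among members of neither family, the difference in β-catenin calls between CdxKO and T/BraKO was −2.25 percentage points rather than 4.33 (exact permutation test, p = 0.5), and that in LEF1 calls was 13.6 points rather than 21.9 (exact permutation test, p = 0.1, adjusted p = 0.2). The part of read mapping at similar copies in these values was not tested.

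CDX motifs varied with β-catenin calls in CdxKO. Of the 45 members with β-catenin in 0 or 1 of 3 CdxKO lists, 12 (26.7%, 16 to 41.0) held a CDX motif, against 8 of 61 (13.1%, 6.80 to 23.8) called in 2 lists and 29 of 364 (7.97%, 5.60 to 11.2) called in 3. The same split by T/BraKO calls gave 10.4%, 11.6% and 10.2%. Regions are not replicates, so no test was made. By SOX2 calls in CdxKO, SOX motifs were in 9 of 93 members (9.68%, 5.18 to 17.4) called in at least 2 lists and in 9 of 268 (3.36%, 1.78 to 6.26) called in none, with intervals that overlap. TCF/LEF motifs were in 15 of 26 members with SOX2 in at least 2 of 3 lists without CHIR (57.7%, 38.9 to 74.5) and in 84.5% (80.7 to 87.7) of the 401 members called in none of those lists, again with no test.

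The best-ranked member, chr9:43843562-43844256, was intergenic and 99997 bp from the start of Nectin1, which encodes a cell adhesion molecule. Its LEF1 peak had rank 23, 40 and 17 in the 3 WT libraries, 11, 14 and 11 in CdxKO and 21, 21 and 10 in T/BraKO. Its LEF1 fold enrichment over local background was 36.1, 33.3 and 36.3 in WT, 65.5, 57.1 and 50.3 in CdxKO and 42.4, 43.7 and 45.7 in T/BraKO. It was thus among the strongest LEF1 sites of all 9 libraries. Its β-catenin rank was 524, 297 and 85 in WT, 269, 717 and 112 in CdxKO and 351, 640 and 115 in T/BraKO.

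The member at Nodal (chr10:61405692-61406845), a ligand of the TGF-β family that acts in the early embryo, lay upstream of the gene. β-catenin ranked 610, 417 and 229 there in WT, 259, 792 and 529 in CdxKO and 226, 342 and 219 in T/BraKO. LEF1 ranked 78, 363 and 155 in WT, 155, 755 and 191 in CdxKO and 354, 315 and 2058 in T/BraKO. The β-catenin ranks of the 3 genotypes overlapped. SOX2 was outside the 20000 best in WT at ranks 147371 and 26320 with no peak in the second list. It was inside in CdxKO replicates 2 and 3 at 4127 and 9659 and in T/BraKO replicate 3 at 7083.

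The Amotl2 member (chr9:102717272-102718198) lay in the first bases of Amotl2, a gene for a junction-associated angiomotin protein. It had β-catenin ranks of 98, 232 and 196 in WT, 185, 238 and 148 in CdxKO and 156, 93 and 184 in T/BraKO. SOX2 was called there in all 3 lists without CHIR at ranks 11550, 5242 and 3871 and in all 3 CdxKO lists at 6583, 5281 and 7215. In WT with CHIR SOX2 was at ranks 31021 and 29786, with no peak in the second list. The other best-ranked members with SOX2 in 3 of 3 lists without CHIR were those nearest to Utp18 and to Lhx4, a LIM homeobox gene. Their SOX2 ranks there were 7129, 2822 and 7479 at Utp18 and 17725, 15611 and 11815 at Lhx4.

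The Bicdl1, Nr4a2 and Oaz2 members also kept β-catenin and LEF1 in all 12 mutant lists. The Bicdl1 member, in an intron of that gene, had β-catenin ranks of 112, 193 and 216 in WT, 98, 125 and 277 in CdxKO and 162, 75 and 110 in T/BraKO. The Nr4a2 member was intergenic and 780402 bp from its nearest gene, which encodes a nuclear receptor. Its worst mutant rank was 637 for β-catenin and 4933 for LEF1, both in T/BraKO. The Oaz2 member lay in an intron of Zfp609 and was the only one of these 3 with no TCF/LEF match within 100 bp of the summit, and its β-catenin ranks were 282, 527 and 190 in WT, 419, 303 and 501 in CdxKO and 181, 213 and 239 in T/BraKO.

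A second set of strong members lost rank in T/BraKO. The Pkdcc member (chr17:82494378-82495374) was intergenic and far from that gene, a secreted kinase. β-catenin ranked 131, 17 and 83 there in WT and 23, 33 and 23 in CdxKO, but 4508 and 4360 in T/BraKO replicates 1 and 3 with no peak in replicate 2. Fold enrichments were 55.5, 133 and 90.3 in WT, 95.2, 99.1 and 92.6 in CdxKO, and 13.4 and 9.01 in T/BraKO. LEF1 at this member ranked 298, 105 and 411 in WT and 92, 418 and 328 in CdxKO. In T/BraKO it was at 56716 and 322741 with no peak in the third list.

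The Rftn1 member (chr17:50086497-50087669), in an intron of a lipid raft protein gene, behaved alike. β-catenin ranked 414, 144 and 287 in WT, 94, 204 and 65 in CdxKO and 2796, 3302 and 3899 in T/BraKO, so T/BraKO libraries did not overlap the others. LEF1 ranked 452, 634 and 406 in WT and 580, 1137 and 115 in CdxKO, and was outside the 20000 best or without a peak in all 3 T/BraKO lists. The Slc1a4 member of family A (chr11:20394430-20395184), at a gene for a neutral amino acid transporter, had β-catenin ranks of 391, 107 and 163 in WT, 244, 240 and 85 in CdxKO and 2629, 2612 and 2521 in T/BraKO. No LEF1 peak was listed there in any T/BraKO library. The Pkdcc and Rftn1 members were placed in neither family. Their summit sequences nevertheless shared stretches with that of the Slc1a4 member, among them ctgtgaatttggc and ctgctaaaa (on the minus strand at Pkdcc).

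In T/BraKO no β-catenin peak among the 20000 best lay at the family A members nearest to Actl6a, a gene for a chromatin remodelling subunit, Cypt15 and Cypt12. At Actl6a β-catenin ranked 375, 179 and 148 in WT and 196, 481 and 139 in CdxKO, and in T/BraKO it was listed only in replicate 1 at 73978. At Cypt12 it ranked 329, 96 and 233 in WT and 101, 414 and 72 in CdxKO, and no T/BraKO list held a peak. At Cypt15 it ranked 786, 642 and 455 in WT and 335, 288 and 170 in CdxKO, and in T/BraKO it was listed only in replicate 1 at 70752. The family A member at Klhl6 kept β-catenin in T/BraKO at ranks 325, 270 and 602, and that at Zfp354a was at 8280, 56830 and 5286.

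**Figure D5:**
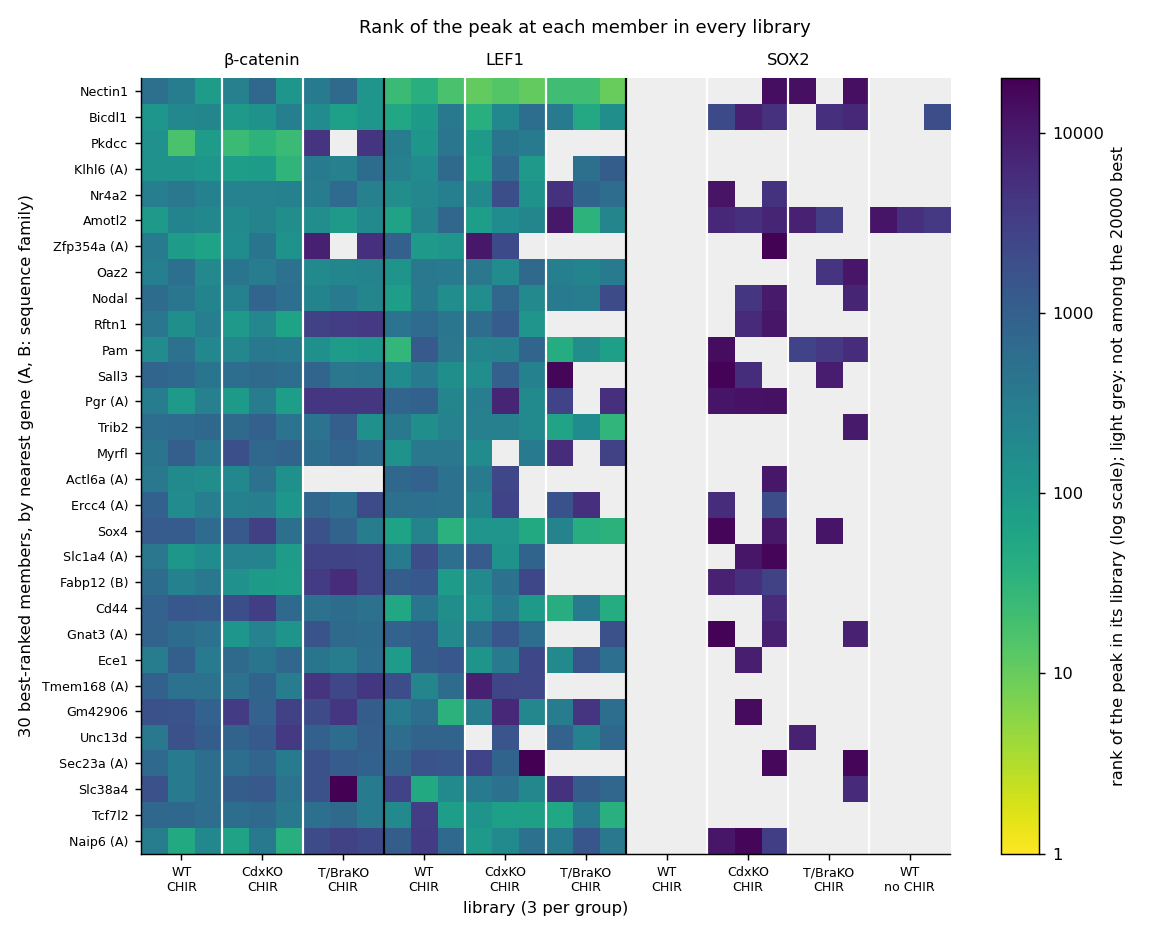
Rank of the peak at each of the 30 best-ranked members (rows, by nearest gene) in all 30 libraries (columns, 3 per group), on a log colour scale from rank 1 to 20000; light grey means no peak among the 20000 best, and A or B marks a sequence family. Pkdcc, Rftn1, Actl6a and Slc1a4 are darker or grey in T/BraKO for β-catenin and grey for LEF1, whereas Nectin1 and Tcf7l2 keep their colour across genotypes.

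The opposite pattern, β-catenin lost in CdxKO only, was weaker in rank. The 3 best-ranked of its 7 members were nearest to Zic4, Tuba3b and Opcml, which encode a zinc finger factor, a tubulin and a neural adhesion molecule. At Zic4 (chr9:91445553-91446094) β-catenin ranked 1447, 3529 and 1204 in WT and 1870, 5538 and 259 in T/BraKO, and no CdxKO list held a peak. At Opcml it ranked 1633, 3929 and 1915 in WT and 1937, 1636 and 423 in T/BraKO, again with no peak in CdxKO. At Tuba3b it ranked 1103, 3726 and 806 in WT and 3555, 1136 and 737 in T/BraKO, and 32440 in CdxKO replicate 1 alone. Each of these 3 members held 1 CDX motif and at least 1 TCF/LEF motif within 100 bp of the summit. No CDX motif share over all 7 is given here. CDX motifs were in 10.4% of all members and 15.0% of all merged regions.

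The single member with LEF1 in 3 of 3 T/BraKO and 0 of 3 CdxKO lists lay at the start of Snph, which encodes syntaphilin. LEF1 ranked 605, 796 and 10479 in WT, 81355, 75522 and 154033 in CdxKO and 18325, 1026 and 2963 in T/BraKO. β-catenin was called there in all 9 libraries, at ranks 2376, 2818 and 2192 in WT, 3353, 7802 and 7680 in CdxKO and 2451, 1956 and 6738 in T/BraKO.

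WNT feedback and target genes were nearest to 6 members, at 5 of the 18 genes listed: Axin2, a feedback inhibitor, with 2 members, Ccnd1 and Myc, which drive cell division, the WNT receptor gene Fzd7, and Tnfrsf19. This was 1.28% of members, against 2.36% of triple regions and 0.270% of all merged regions. The Tnfrsf19 member lay at the start of that gene, with β-catenin ranks of 1083, 1930 and 820 in WT, 1284, 1183 and 540 in CdxKO and 1620, 2734 and 1155 in T/BraKO. The Myc member was intergenic and 508908 bp from the gene. Its β-catenin ranks were 1061, 1101 and 889 in WT, 2519, 2335 and 3101 in CdxKO and 692, 731 and 942 in T/BraKO, so all 3 CdxKO libraries ranked it below all others. Of the 4 TCF/LEF genes, Tcf7l2 was nearest to 1 member, in its own intron. LEF1 ranked 179, 3310 and 80 there in WT, 117, 74 and 71 in CdxKO and 53, 319 and 37 in T/BraKO.

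Genes of the primitive streak and mesoderm were nearest to 3 members, at Evx1, Mixl1 and T, of 22 genes listed. This was 0.638% of members, against 0.885% of triple regions and 0.245% of all merged regions. The Evx1 member had better β-catenin ranks in T/BraKO than in the other lines, at 294, 272 and 199 against 2982, 817 and 1257 in WT and 1013, 694 and 1194 in CdxKO. The T member (chr17:8421605-8422043), near the gene that is mutant in T/BraKO, was weaker. Its β-catenin ranks were 7683, 4249 and 13677 in WT, 1536, 38695 and 6027 in CdxKO and 18477, 42749 and 3643 in T/BraKO, so the groups overlapped. LEF1 there ranked 1139, 3251 and 6339 in WT, and was outside the 20000 best or without a peak in all 6 mutant lists.

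Caudal and posterior genes were nearest to 3 members, at Hoxb1, Hoxc4 and Meis2, of 34 genes listed (0.638%, against 1.92% of triple regions and 0.307% of all merged regions). At Hoxb1 β-catenin ranked 1800, 1161 and 963 in WT, 978, 1640 and 346 in CdxKO and 11384, 22038 and 2621 in T/BraKO, so all 3 T/BraKO libraries lay outside the range of the others. LEF1 was at rank 520, 131532 and 197 in WT. At Meis2 β-catenin ranked 1481, 571 and 481 in WT, 814, 966 and 153 in CdxKO and 2450, 5848 and 270 in T/BraKO, which overlapped.

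The remaining lists touched few members. Nodal was the gene of 1 member among 15 Nodal and BMP genes, Etv4, an ETS factor downstream of FGF, among 12 FGF pathway genes, and Zeb2 among 21 neural genes. That was 0.213% of members for each list, against 0.190%, 0.154% and 0.431% of all merged regions. At Etv4 β-catenin ranked 346, 349 and 313 in WT, 497, 771 and 561 in CdxKO and 125, 418 and 147 in T/BraKO. At Zeb2 it ranked 4348 and 5711 in WT replicates 1 and 2, with no peak in replicate 3. No member was nearest to any of 20 pluripotency and epiblast genes, 11 WNT ligand genes or 8 endoderm genes, which were nearest to 5, 4 and 0 triple regions. Only 0.251%, 0.116% and 0.0872% of all merged regions were nearest to them, so their absence among 470 members is near background. Nearest genes are positions, and no expression was measured here.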

How the data were processed

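ChIP–seq peak lists of 30 libraries were used, 3 for each of 10 groups. The authors trimmed single-end reads, aligned them to mm10 with BWA in the nf-core ChIP-seq pipeline and called narrow peaks per library with MACS2; replicates were not pooled. The pairing of inputs with libraries is not given in the sources used here. Per peak, the authors deposited a ratio (fold enrichment of the summit over local background) with its −log10 p and −log10 q. The deposited whole-number score was not used. The lists held 26940 to 1008922 peaks, read counts were not used and depth is unknown, so intervals cover counting error only.

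Peaks of autosomes, X and Y were ordered by −log10 q (ties by −log10 p and then fold), and the 20000 best of each list were merged by at least 1 bp of overlap. A region was called in a library with a peak among its 20000 best. The centre was the summit of the best-ranked WT β-catenin peak. Where there was none, the best-ranked WT LEF1 peak was used, and where that was also missing the best-ranked WT SOX2 peak. Genes and start sites came from GENCODE M21 on mm10, and motifs were sought on both strands. Groups were compared by exact permutation tests over libraries, members with triple regions by exact sign-flip permutation tests, all two-sided, with Benjamini-Hochberg adjustment over 4 and 3 tests and a threshold of 0.05. Backgrounds were the WT β-catenin regions, the WT LEF1 regions and the WT β-catenin regions without SOX2. Scripts were tested on simulated data (Python 3.11.15, numpy 2.4.6, pandas 2.3.3, scipy 1.17.1, pysam 0.24.0).

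The members, gene lists and tests were chosen with earlier results of these data known. The genes named are those of the 10 best-ranked members, the best 2 per gene list, the best 3 of each pattern of calls and the 3 on either side of the limit; Axin2, Ccnd1, Fzd7, Mixl1, Hoxc4 and the family copies were added after their values were seen. Same-numbered CdxKO and T/BraKO libraries deviated together for SOX2 (correlations over members 0.210, 0.209 and 0.370), though not in every pair for β-catenin (−0.0632, 0.273 and 0.455) or LEF1 (0.0519, −0.0278 and 0.0666). Alternatives were other numbers of peaks, overlaps, windows and rules, the replicate block and leaving out each library. Leaving out the members (not the triple regions) of both sequence families was added after seeing the data.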

Additional observations from a re-analysis of the deposited data

How the results depend on the processing

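The number of members depended on the rule: 1167 with the complete lists, 120 when called in 3 of 3 lists of both factors, 75 with no peak in any complete WT SOX2 list, and 214 to 724 with 1 library left out, the latter without the third WT SOX2 library and 215, 305 and 214 without WT LEF1 library 1, 2 or 3. The TCF/LEF share was 50.04% with the complete lists, 87.5% in 3 of 3 lists, 90.7% without any SOX2 peak, 67.0% within 50 bp of the summit and 79.3% to 85.0% with 1 library left out. The SOX motif share was 2.50% in 3 of 3 lists, 2.67% without any SOX2 peak and 3.26% to 8.01% with 1 library left out, the latter without the third WT SOX2 library. The promoter share was 6.67% without any SOX2 peak, 8.09% within 500 bp and 9.84% to 14.5% with 1 library left out. Other numbers of peaks and other rules chose members and triple regions anew, so their values below describe other regions than those followed above.

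The β-catenin difference between CdxKO and T/BraKO changed sign to −1.17 points with the complete lists, −2.22 without any SOX2 peak, −2.25 in neither family and −1.09 without WT LEF1 library 3, and ranged from −1.09 to 9.15 with 1 library left out. The LEF1 difference ranged from 18.9 to 27.1 and the SOX2 difference from 5.89 to 12.9 with 1 library left out. Under the other alternatives LEF1 ranged from 6.71 with the complete lists to 27.0 with 5000 peaks, with 17.8 without any SOX2 peak and 13.6 in neither family. SOX2 ranged from 2.37 with 5000 peaks to 13.1 in 3 of 3 lists, with 2.52 in neither family, 4.44 without any SOX2 peak and 5.66 with the complete lists. With the replicate block (paired sign-flip) these differences stayed at 4.33, 21.9 and 8.01 points with an exact permutation p = 0.25, the smallest that 3 pairs allow, and no call changed.

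The lower SOX2 share without CHIR passed the threshold with 10000 peaks (−10.3 points), 5000 peaks (−7.10) and in neither family (−10.8), and ranged from −16.9 to −9.80 with 1 library left out, passing without WT LEF1 library 3 (−14.2) or WT SOX2 library 2 (−12.3) or 3 (−16.9); each exact permutation p was 0.0119, adjusted 0.0476. It did not pass with the complete lists (−3.86), without any SOX2 peak (−7.56) or in 3 of 3 lists (−18.5). Members minus triple regions ranged from −11.5 to −7.62 points for β-catenin, −21.9 to −17.2 for LEF1 and −67.3 to −60.4 for SOX2 with 1 library left out. Under the other alternatives the β-catenin range was −30.3 (complete lists) to −3.95 (3 of 3 lists), with −17.4 without any SOX2 peak. For LEF1 it was −25.9 (without any SOX2 peak) to −18.3 (members of neither family). For SOX2 it was −71.7 (without any SOX2 peak) to −55.1 (complete lists). Leaving out the families removed members only, so triple regions of both families stayed in that comparison. With 5 mutant libraries left, the exact sign-flip permutation test cannot go below p = 0.0625, so the β-catenin and LEF1 calls were lost for each library left out. The lists held only autosomes, X and Y, so taking all sequences changed nothing. The cause of these changes was not tested. Depth is unknown and limits how far an absent peak can be read as absent binding.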
